A study of Mus musculus with 12 samples.

Results

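The neurotrophin genes Bdnf and Ntf3, the Trk receptor genes Ntrk2 and Ntrk3, the p75 receptor gene Ngfr and the sortilin gene Sort1 were taken by symbol from the table of raw counts, where all 6 were found among 23893 genes. They were followed in cultured mouse cortical neurons in which the DNA topoisomerase gene Top1 was deleted, topotecan was given, or both. Topotecan holds TOP1 on DNA as a cleavage complex, so the design separates cells that lack most Top1 transcript from cells in which the enzyme is trapped. The genes were counted in 12 polyA RNA libraries, 3 in each of 4 groups.

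All groups came from cortices of C57BL6 embryos at E13.5 to E15.5. The study's methods describe Top1 fl/fl cultures infected at day 3 in vitro (DIV 3) with a lentivirus that carries the CaMKIIα promoter. WT cultures received tdTomato alone and Top1 cKO cultures received tdTomato joined to Cre, so the floxed allele and the virus are shared by every group, although the labels call the first genotype wild-type. The methods give 85 to 90% of cells as transduced, and the promoter is one used to limit Cre to neurons. Which cells the remaining Top1 transcript came from was not tested. At DIV 15 cultures received 300 nM topotecan (Topot) or its vehicle, 0.003% DMSO (Veh), for 3 days. Group names join the genotype and the treatment, as in WT-Veh or Top1 cKO-Topot.

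Neurotrophins are secreted growth factors that are made as precursors and processed by proteases. BDNF acts through the receptor tyrosine kinase TrkB, encoded by Ntrk2, and NT-3 acts mainly through TrkC, encoded by Ntrk3, while p75, encoded by Ngfr, binds every neurotrophin and pairs with sortilin for the precursors. In cortical neurons Bdnf transcription follows synaptic activity through several alternative promoters, and BDNF signalling supports dendrites, synapses and plasticity. TrkB is made in neurons as a full-length kinase and, in astrocytes especially, as a truncated form, and counts per gene symbol do not tell these forms apart.

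The genes differ in length. In the GENCODE vM1 annotation of NCBIM37, the assembly that mm9 names, Bdnf lies at chr2:109514857-109567204 on the + strand and spans 52.3 kb, with 10 annotated transcripts that occupy 8 merged exons. Ntf3 lies at chr6:126051431-126116762 on the - strand and spans 65.3 kb, Ngfr at chr11:95430132-95449049 on the - strand with 18.9 kb, and Sort1 at chr3:108087009-108164429 on the + strand with 77.4 kb. The Trk receptor genes are long: Ntrk2 at chr13:58907957-59235331 on the + strand spans 327.4 kb, and Ntrk3 at chr7:85337248-85723294 on the - strand spans 386.0 kb. Their longest introns measure 66.0 kb and 71.8 kb, against 15.2 kb in Bdnf. Of these genes only Sort1 shares exon bases with another annotated gene, 329 bases with Gm12523 on the opposite strand, and whether the counting used strand is not given in the sources used here.

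Bdnf promoter sequence is shown because it is the member whose transcription is known to follow activity. In the RefSeq promoter set on GRCm38.p6, a later assembly than that of the counts, Bdnf had 7 windows of 250 bases before a transcript start, Ntf3 had 2, and Ntrk2 and Ngfr had 1 each. The windows were searched on both strands for the cAMP response element TGACGTCA, for its variant TCACGTCA and for the E-box CACGTG, motifs that do not overlap in the window shown. The variant was in 1 of the 7 Bdnf windows and in 0.35% of 32851 windows of this length genome-wide. That window lies at chr2:109692186-109692435 on the + strand, and its capitals mark the variant, which starts 38 bases before the transcript start.
Bdnf window 3: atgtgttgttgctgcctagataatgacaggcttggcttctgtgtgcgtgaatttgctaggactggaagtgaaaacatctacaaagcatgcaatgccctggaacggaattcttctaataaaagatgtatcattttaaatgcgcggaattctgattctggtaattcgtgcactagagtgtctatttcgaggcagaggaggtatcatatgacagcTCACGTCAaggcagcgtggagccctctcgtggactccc
TGACGTCA was in 0 windows of these genes and in 1.55% of all windows, and CACGTG was in 1 of the 2 Ntf3 windows and in 6.02% of all windows. The counts cover exons of the whole gene, so they do not say which Bdnf promoter was in use.

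Library totals ran from 1730164 to 4583777 counts. Levels are given as CPM, counts scaled to library size with TMM factors over the 12 libraries, and changes as edgeR log2 fold changes with their standard errors (SE) and with p-values adjusted over all 23893 genes, called at an adjusted p below 0.01. Top1 was at 117 to 163 CPM in the 6 WT libraries and at 27.1 to 44.0 CPM in the 6 Top1 cKO libraries. Markers of cortical neurons, 11 of 11 above 1 CPM on average, summed to between 6210 and 8170 CPM in every library. Within that sum single markers differed between groups. In WT-Topot against WT-Veh, 1 of 11 was called lower, Rbfox3 (log2 fold change −0.96, adjusted p = 0.00209). Tbr1 was called higher (1.12, adjusted p = 8.25e-04). With the replicate block defined below, 3 were lower and 3 higher. Of genes averaging 1 CPM or more, edgeR called 4.74% (14.3% with the block). Astrocyte markers were also present, 10 of 10 above 1 CPM, whereas microglial markers summed to at most 13.7 CPM and proliferation markers to at most 4.78 CPM. Summed interneuron markers had medians of 1560 CPM in WT-Veh, 775 CPM in WT-Topot and, in Top1 cKO cells, 1300 CPM with vehicle and 1280 CPM with topotecan. The sums overlapped between WT-Veh (781 to 1730 CPM) and WT-Topot (527 to 973 CPM). There edgeR called 0 of the 8 interneuron markers, and the block called 5 lower and 1 higher. At an unadjusted p under 0.05 there were 5 lower and 1 higher, and DESeq2 called 1. Log2 fold changes were negative for 6 of 8, but not for Lhx6 (0.84) and Pvalb (0.006). In bulk RNA, fewer cells of a type and less RNA per cell cannot be told apart. The main fit has no block, since the study's methods state none. Replicate numbers are treated as pairing the libraries, so a fit that takes this number as a block (the blocked fit) is reported wherever it changes the call of a member.

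Relative to exon length, Ntrk2, Sort1 and Bdnf were the more abundant members in WT-Veh. Lengths here are the merged exons of all GENCODE vM1 transcripts of a gene, whereas the counts cover RefSeq exons. The order between genes may depend on that choice. Ntrk2 stood at 79.5 ± 27.6 CPM per exon kb (SD, n = 3), Sort1 at 72.0 ± 10.6 and Bdnf at 48.2 ± 25.3, and neighbours in this order overlapped between libraries. Ntrk3 followed at 11.7 ± 1.75 CPM per exon kb, with all 3 libraries below every Bdnf library and above every library of Ntf3 (3.10 ± 1.41) and Ngfr (1.92 ± 1.96), which overlapped each other. In WT-Topot the order changed at the top. Sort1 led with 55.7 ± 6.46 CPM per exon kb, Ntrk2 came next with 21.9 ± 5.39, and Bdnf at 4.6 ± 1.19 was no longer separate from Ntrk3 at 4.50 ± 2.06. In Top1 cKO-Topot, Bdnf was at 27.7 ± 4.92 CPM per exon kb and overlapped Ntrk2 at 35.2 ± 8.55, while Ntrk3 at 11 ± 2.06 lay below both.

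**Figure D1:**
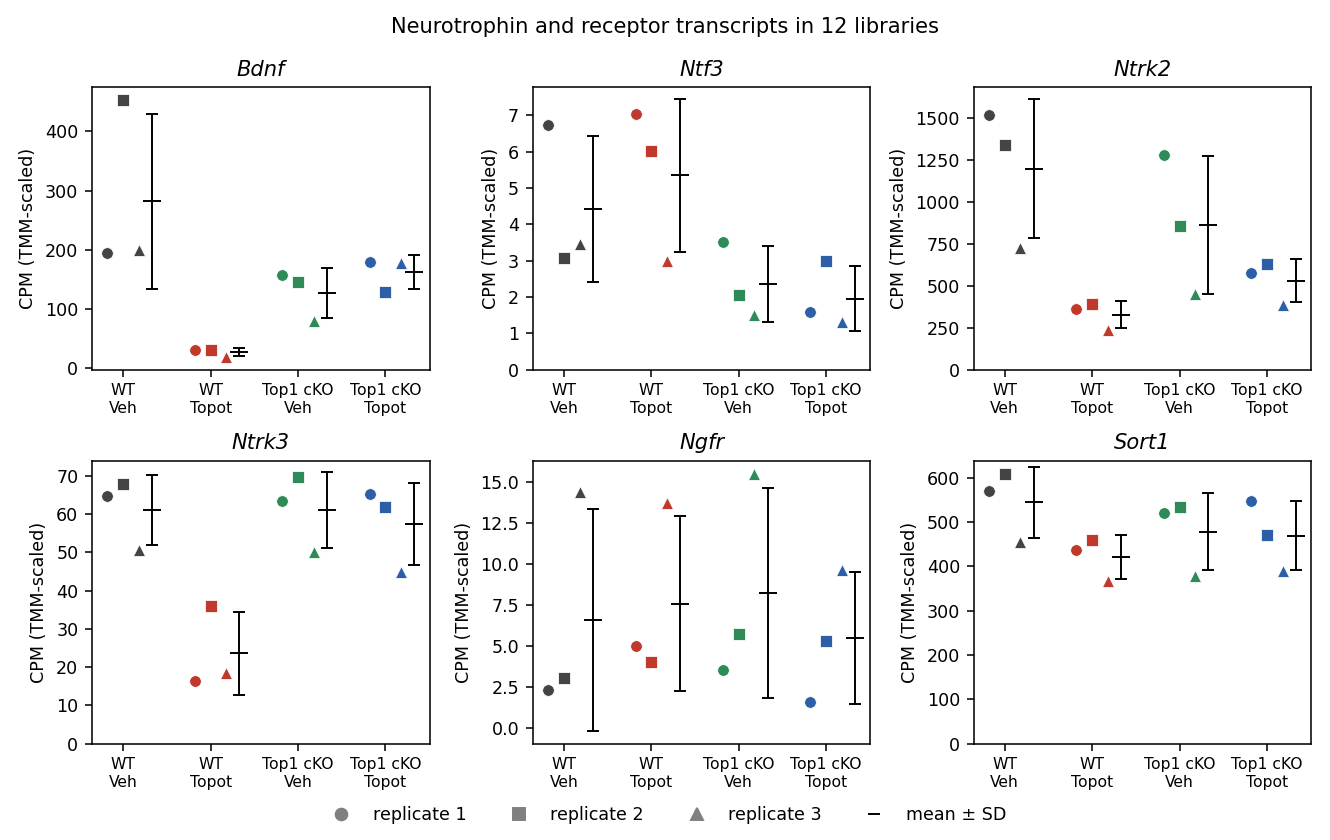
Level of each gene (vertical axis, TMM-scaled CPM, a separate linear scale per gene) in the 3 libraries of each group, with marker shape giving the replicate number and black bars the mean ± SD. Bdnf in WT-Topot (18.8 to 31.2 CPM) lies below every other library, Ntrk3 is low in WT-Topot only, and Ngfr is highest in replicate 3 of each group.

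Bdnf was the member that changed most with topotecan in WT cells. Its level in WT-Veh was 195, 453 and 199 CPM in replicates 1, 2 and 3, and in WT-Topot it was 31.2, 30.6 and 18.8 CPM. Replicate 2 of WT-Veh stood apart from its group, yet even the lowest WT-Veh library was above the highest WT-Topot library. Bdnf fell 10.4-fold, a log2 fold change of −3.38 (SE 0.306, adjusted p = 8.18e-07), and 0.313% of the 13720 genes that averaged 1 CPM or more had a lower value. Without replicate 2 of WT-Veh the log2 fold change was −2.86.

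Deletion of Top1 alone was accompanied by a smaller Bdnf difference. Top1 cKO-Veh libraries had 158, 145 and 79.2 CPM, all below the 3 WT-Veh libraries, with a log2 fold change of −1.14 (SE 0.310, adjusted p = 0.131). This did not pass the test, while the fit with the replicate block called it (−1.09, adjusted p = 1.13e-15). Without WT-Veh replicate 2 it was −0.62 with an adjusted p of 0.515, so its size rests in part on that library.

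In Top1 cKO cells, Bdnf did not pass the test for a topotecan effect. Top1 cKO-Topot libraries had 180, 129 and 177 CPM and overlapped Top1 cKO-Veh, with a log2 fold change of 0.35 (SE 0.229, adjusted p = 1, and 0.0496 with the block). Set against WT-Topot, the same libraries were all higher, and Bdnf rose 5.93-fold, a log2 fold change of 2.57 (SE 0.217, adjusted p = 1.03e-07). The interaction term, the topotecan effect in Top1 cKO cells minus that in WT cells, was 3.72 on the log2 scale (SE 0.432, adjusted p = 1.33e-04), positive in 3 of 3 sets of libraries with the same number. The topotecan effect on Bdnf thus differed between the genotypes by a direct test.

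Against WT-Veh, Bdnf in Top1 cKO-Topot was at −0.79 (SE 0.264, adjusted p = 0.118). All 3 libraries were below WT-Veh, the block fit called the difference (−0.68, adjusted p = 0.00959), and without WT-Veh replicate 2 it was −0.27 with an adjusted p of 0.797. It was called without WT-Veh replicate 1 (adjusted p = 0.00408) or replicate 3 (3.2e-04). WT-Topot was also below Top1 cKO-Veh, where Bdnf fell by 2.24 on the log2 scale (SE 0.265, adjusted p = 1.06e-04). These comparisons share libraries with those above, so they are not separate evidence.

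Ntf3, the gene of NT-3, was near the depth limit, with 3 to 23 counts per library. It was at 6.73, 3.07 and 3.46 CPM in WT-Veh and at 7.04, 6.01 and 3.00 CPM in WT-Topot, which overlapped (log2 fold change 0.25, SE 0.473, adjusted p = 1). Top1 cKO-Veh had 3.52, 2.06 and 1.5 CPM and Top1 cKO-Topot had 1.59, 2.99 and 1.31 CPM. The 3 Top1 cKO-Topot libraries were below the 3 WT-Topot libraries by −1.41 (SE 0.531), with an adjusted p of 0.157, or 0.044 with the block. No comparison of Ntf3 passed the test.

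Ntrk2 and Ntrk3, the long Trk receptor genes, both fell with topotecan in WT cells. Ntrk2 was at 1520, 1340 and 729 CPM in WT-Veh and at 364, 390 and 238 CPM in WT-Topot, with no overlap. Its fall was 3.61-fold, a log2 fold change of −1.85 (SE 0.235, adjusted p = 3.36e-05). Ntrk3 was at 64.7, 67.9 and 50.7 CPM in WT-Veh and at 16.4, 36.1 and 18.4 CPM in WT-Topot, again with no overlap. Its fall was 2.56-fold (SE 0.271 on the log2 scale, adjusted p = 0.00374). The Ntrk3 call was lost without WT-Topot replicate 3 (adjusted p = 0.014) and under the filterByExpr filter on low counts (0.0133).

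With Bdnf, these made 3 of 6 members called in WT-Topot against WT-Veh, all lower, where 2.72% of all genes were called (8.25% with the block, which called the same number of members). Among genes averaging 1 CPM or more, 4.74% were called and the median log2 fold change was 0.03. Of 1915 such genes over 100 kb, 17.9% were called lower, with a median of −0.42, against 1.08% of the 10629 shorter ones, with a median of 0.08. Within the long class, 8.93% of genes had a lower log2 fold change than Ntrk2 and 16.4% had a lower one than Ntrk3. Both receptor genes therefore lay toward the lower end of their length class, and Bdnf, the member with the lowest value, was not in it.

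In the Top1 cKO groups Ntrk3 levels overlapped those of WT-Veh. In Top1 cKO-Veh it was at 63.4, 69.6 and 50.1 CPM, a log2 fold change of 0.00 (SE 0.214, adjusted p = 1) from WT-Veh, and in Top1 cKO-Topot it was at 65.3, 61.8 and 45.0 CPM. The corresponding topotecan effect in Top1 cKO cells was −0.08 (SE 0.215, adjusted p = 1). Ntrk3 was thus low in WT-Topot alone: Top1 cKO-Topot was above it in every library, with a log2 fold change of 1.26 (SE 0.264, adjusted p = 0.0043). That call was lost without Top1 cKO-Topot replicate 2 (adjusted p = 0.0265) and with filterByExpr (0.017). The interaction term for Ntrk3 was also 1.26 (SE 0.364), with an adjusted p of 0.116 that did not pass, and with the block it was 1.29 and called (adjusted p = 2.73e-04).

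Mean Ntrk2 levels in the Top1 cKO groups, 862 ± 411 CPM with vehicle and 531 ± 129 CPM with topotecan (SD, n = 3), stood between those of WT-Veh (1200 ± 416) and WT-Topot (330 ± 81.3). Top1 cKO-Veh had 1280, 856 and 454 CPM and overlapped WT-Veh (log2 fold change −0.47, SE 0.304, adjusted p = 0.825), but within replicate numbers every Top1 cKO library was the lower one and the block fit called the difference (−0.52, adjusted p = 1.48e-06). Leaving out 1 library moved the unblocked value, to −0.87 when replicate 1 of Top1 cKO-Veh was dropped and to −0.17 when its replicate 3 was. Top1 cKO-Topot had 577, 630 and 386 CPM, a log2 fold change of −0.69 (SE 0.273, adjusted p = 0.963) from Top1 cKO-Veh. With the block this was −0.61 and called (adjusted p = 5.19e-11), and without Top1 cKO-Veh replicate 3 it was −0.99 and called in the unblocked fit (adjusted p = 2.47e-04), while without Top1 cKO-Veh replicate 1 it was −0.29 (adjusted p = 1). Replicate 3 had the lowest Ntrk2 level in 4 of 4 groups, which is the spread that the block removes. It was also the library with the lowest total count in each group, and whether depth bears on its levels was not tested.

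Whether the fall of Ntrk2 depended on genotype was called by the blocked test only. The interaction term was 1.16 (SE 0.420, adjusted p = 0.305), and with the block it was 1.20 and called (adjusted p = 1.18e-07). Top1 cKO-Topot exceeded WT-Topot by 0.68 (SE 0.192, adjusted p = 0.0373), with overlapping libraries and a call under the block (adjusted p = 1.17e-07). Against WT-Veh, Ntrk2 in Top1 cKO-Topot fell 2.22-fold (log2 fold change −1.15, SE 0.229, adjusted p = 0.00485). This call was lost in a fit over all 12 libraries (adjusted p = 0.0282) and with filterByExpr (0.0278). It was also lost on leaving out replicate 2 of WT-Veh (0.019) or replicate 2 of Top1 cKO-Topot (0.0129).

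**Figure D2:**
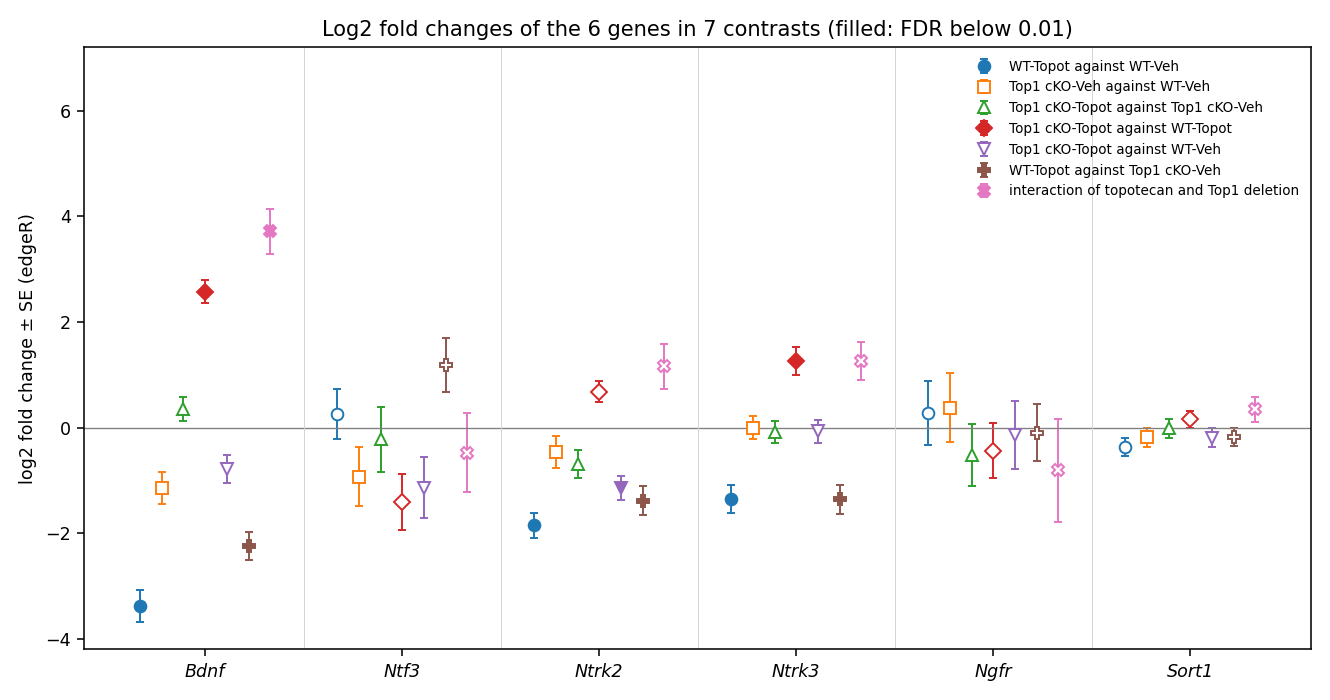
edgeR log2 fold change (vertical axis) with its SE for each gene in the 6 group comparisons and the interaction, filled where the adjusted p was below 0.01. Bdnf runs from −3.38 in WT-Topot against WT-Veh to 3.72 for the interaction, Ntrk3 departs from 0 only in contrasts that include WT-Topot, and Ngfr and Sort1 have no filled point.

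Within replicate numbers, summed astrocyte markers and Ntrk2 were both lower with topotecan in each genotype. With Top1 deletion alone the marker sum was higher than in WT-Veh, while Ntrk2 was lower. The higher sum was not a trait of all markers: 4 of 10 had negative log2 fold changes, with a median of 0.08. There edgeR and DESeq2 called 0 markers, and 0 had an unadjusted p under 0.05. The block called 1 higher, Slc1a2, which averaged 1530 CPM in WT-Veh and 2060 CPM in Top1 cKO-Veh. Of genes averaging 1 CPM or more, edgeR called 0.299% (9.67% with the block). The sum was 4980, 3550 and 2410 CPM in WT-Veh and 1970, 1470 and 1150 CPM in WT-Topot. In Top1 cKO-Veh it was 6300, 3920 and 2730 CPM, and in Top1 cKO-Topot 3220, 2600 and 1720 CPM. In every group replicate 3 was lowest for both the sum and Ntrk2. Gfap (intermediate filament protein), Slc1a3 and Slc1a2 (glutamate transporters) passed the test in WT-Topot against WT-Veh, 3 of 10 markers lower (5 with the block). The share called among genes averaging 1 CPM or more was 4.74% (14.3% with the block). Log2 fold changes of the markers were negative for 7 of 10, but not for Aldoc (0.09), Sox9 (0.13) and S100b (0.001). None of the defining markers was at 0. In Top1 cKO-Topot against Top1 cKO-Veh, 0 of 10 passed edgeR's test (6 lower with the block, 5 at an unadjusted p under 0.05 and 0 by DESeq2). The share called among genes averaging 1 CPM or more was 0.0146% there (4.51% with the block). The part of astrocytes in the Ntrk2 result was not tested.

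**Figure D3:**
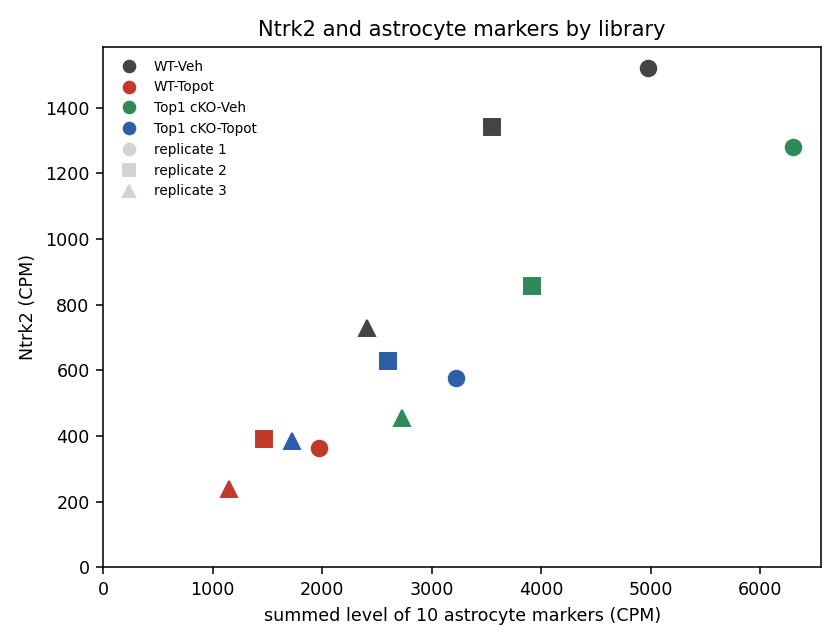
Ntrk2 level (vertical axis, CPM) against the summed level of 10 astrocyte markers (horizontal axis, CPM) in the 12 libraries, coloured by group and shaped by replicate number. The WT-Topot libraries, with marker sums of 1150 to 1970 CPM, have Ntrk2 levels of 238 to 390 CPM, and replicate 3 is the lowest point of each group on both axes.

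Ngfr, encoding p75, was low in all groups, with 4 to 32 counts per library. It was at 2.34, 3.07 and 14.4 CPM in WT-Veh and 5.03, 4.01 and 13.7 CPM in WT-Topot. With Top1 deleted it was at 3.52, 5.72 and 15.5 CPM under vehicle and at 1.59, 5.31 and 9.62 CPM under topotecan. Replicate 3 was highest in 4 of 4 groups, and the groups overlapped in every comparison. No Ngfr difference passed the test. The largest log2 fold change between 2 groups was −0.53 (SE 0.586, adjusted p = 1) in Top1 cKO-Topot against Top1 cKO-Veh.

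Sort1, encoding the sorting receptor that carries proBDNF and binds it together with p75, was abundant and varied little. It was at 569, 609 and 454 CPM in WT-Veh and at 437, 460 and 366 CPM in WT-Topot. The groups overlapped (log2 fold change −0.37, SE 0.171, adjusted p = 0.362), although WT-Topot was lower in 3 of 3 pairs of the same number (adjusted p = 0.0117 with the block). Top1 cKO-Veh had 521, 534 and 379 CPM and Top1 cKO-Topot had 546, 471 and 390 CPM, a log2 fold change of −0.02 (SE 0.174, adjusted p = 1). Sort1 passed the test in no comparison, with or without the block.

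Read over the other comparisons, the members called were few. Top1 cKO-Veh against WT-Veh called 0 of 6 members with edgeR, where 0.172% of all genes were called, against 1 member at an unadjusted p under 0.05 and 0 with DESeq2. With the block it called 2 members against 5.56% of all genes. Top1 cKO-Topot against Top1 cKO-Veh called 0 of 6 with edgeR, where 0.00837% of all genes were called, against 1 at an unadjusted p under 0.05 and 0 with DESeq2, and the block called 1 member against 2.59%.

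Comparisons with WT-Topot on one side called more members. Top1 cKO-Topot against WT-Topot called 2 of 6 members higher, Bdnf and Ntrk3, beside 2.49% of all genes (3 members and 8.69% with the block). WT-Topot against Top1 cKO-Veh called Bdnf, Ntrk2 and Ntrk3 lower, 3 of 6 beside 1.53% (3 members and 7.73% with the block). In this comparison Ntrk2 was at −1.39 (SE 0.274, adjusted p = 0.0068) and Ntrk3 at −1.36 (SE 0.272, adjusted p = 0.0076), and each was called in 7 of 11 alternatives. Top1 cKO-Topot against WT-Veh called only Ntrk2, 1 of 6 beside 1.68% (2 members and 7.37% with the block). The interaction called 1 of 6 members, Bdnf, beside 0.435% (3 members and 3.97% with the block).

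Relative to its receptor transcript, the Bdnf transcript was lowest in WT-Topot. The log2 ratio of Bdnf to Ntrk2 CPM was −2.97, −1.56 and −1.87 in WT-Veh and −3.54, −3.67 and −3.66 in WT-Topot. In Top1 cKO-Veh it was −3.02, −2.56 and −2.52, and in Top1 cKO-Topot it was −1.68, −2.29 and −1.13. All 3 WT-Topot libraries were below the other 9 libraries, so the ligand transcript fell further than the receptor transcript there, and the Top1 cKO-Topot libraries were all above those of Top1 cKO-Veh. These ratios are a description, with no test.

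**Figure D4:**
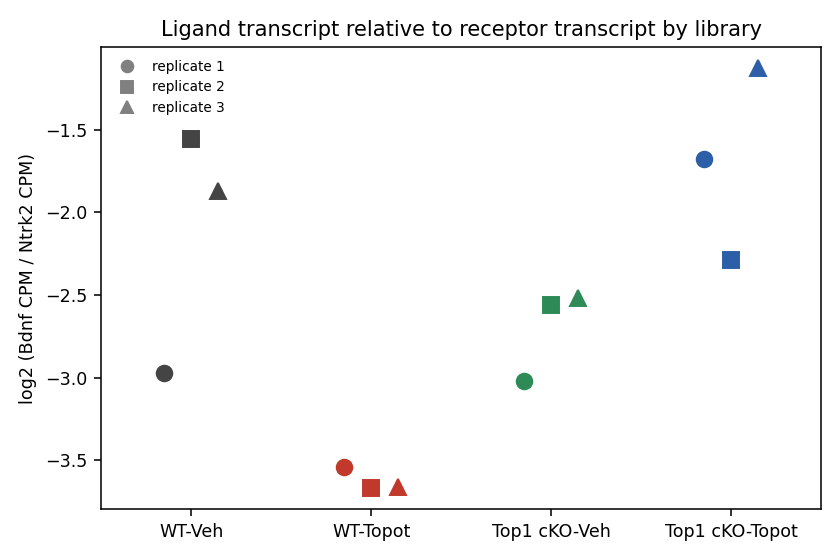
Log2 ratio of Bdnf to Ntrk2 CPM (vertical axis) in each library by group, with marker shape giving the replicate number. WT-Topot libraries lie between −3.67 and −3.54, below every library of the other groups, and Top1 cKO-Topot libraries lie between −2.29 and −1.13.

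The wider neurotrophin pathway was described by 52 other genes, 50 of them averaging 1 CPM or more: ligands, receptors, precursor-processing proteases, Trk adaptors, p75 partners and regulators of Bdnf transcription. In WT-Topot against WT-Veh, 5 fell and 1 rose (11 and 4 with the block), with a median log2 fold change of −0.12. Over all genes averaging 1 CPM or more, the share called was 4.74%, or 14.3% with the block, with a median of 0.03. Of the 5 other receptor genes of the list, 3 fell, all of the sortilin family. Sorcs1 fell by 1.90 (adjusted p = 2.43e-04), Sorcs2 by 2.04 (1.39e-05) and Sorcs3 by 3.34 (4.72e-05) on the log2 scale, and these genes span 534.7, 381.0 and 599.5 kb, longer than Sort1. Without WT-Veh replicate 2 Sorcs3 was at −2.44, still called. Sorcs2 serves as a co-receptor of p75 and TrkB.

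Shorter pathway genes changed too. Pcsk1, a convertase of dense core vesicles that spans 42.7 kb, fell by 1.67 on the log2 scale (adjusted p = 1.33e-04). Npas4, an activity-induced transcription factor that binds Bdnf promoters and spans 5.6 kb, fell by 3.58 (adjusted p = 8.25e-05). Irak1, a kinase in p75 signalling that spans 10 kb, rose by 1.1 (adjusted p = 0.00576). It kept its call in 8 of 11 alternatives, with an adjusted p of up to 0.0273 without WT-Topot replicate 1. The 18 Trk adaptors and effectors had 0 genes called by edgeR (1 lower and 2 higher at an unadjusted p under 0.05, 1 by DESeq2), 1 lower and 2 higher with the block, and a median log2 fold change of −0.01, which is near the shares over expressed genes given above.

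In Top1 cKO-Veh against WT-Veh and in Top1 cKO-Topot against Top1 cKO-Veh, 0 pathway genes were called by edgeR. At an unadjusted p under 0.05 the counts were 6 lower and 2 higher in the first and 4 lower and 1 higher in the second. DESeq2 called 1 and 0, and the block called 5 and 3. Of genes averaging 1 CPM or more, edgeR called 0.299% and 0.0146%, and the block 9.67% and 4.51%, near its shares of this list. Top1 cKO-Topot against WT-Topot called 4.34% of such genes (15.1% with the block). Of the pathway genes it called 6, all higher (2 lower and 13 higher with the block). Those were Npas4 (3.15, adjusted p = 3.88e-05), Pcsk1 (1.66, 8.41e-05), Sorcs2 (1.28, 3.33e-04), Sorl1 (1.42, 6.84e-04), Sorcs3 (1.57, 0.00425) and Sorcs1 (1.44, 0.00622). Sorl1 encodes another sorting receptor of the family. Of 11 alternatives, Sorl1 kept its call in 9, Sorcs3 in 8 and Sorcs1 in 7. The highest adjusted p came from the fit over all 12 libraries for Sorl1 and Sorcs3 (0.0125 and 0.0548). For Sorcs1 it came without Top1 cKO-Topot replicate 2 (0.0411).

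The remaining comparisons of the pathway list follow the groups already described. WT-Topot against Top1 cKO-Veh called 5 lower and 0 higher (12 and 1 with the block). Of genes averaging 1 CPM or more it called 2.66% (13.4% with the block). The 5 were again Sorcs1, Sorcs2, Sorcs3, Pcsk1 and Npas4. Npas4 kept its call in 8 of 11 alternatives (adjusted p up to 0.0514, without Top1 cKO-Veh replicate 2). Top1 cKO-Topot against WT-Veh called 1 gene (3 lower and 3 higher with the block), beside 2.93% of such genes (12.8% with the block). It was Mef2c, a transcription factor of activity-dependent promoters, with a log2 fold change of −0.99 (adjusted p = 5.93e-04). Mef2c was also below WT-Veh in every Top1 cKO-Veh library (−0.80, adjusted p = 0.0423, 3.15e-14 with the block). The same held for every WT-Topot library (−0.605, adjusted p = 0.0479, 3.29e-07 with the block). The interaction called 3 genes higher (1 lower and 8 higher with the block), beside 0.758% (6.9% with the block).

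Bdnf was set beside 20 other activity-induced genes, among them immediate early transcription factors and secreted proteins. Npas4 and Pcsk1 belong to both lists, and genes of this kind were among those the study had already examined in these samples, so their direction is not independent evidence. In WT-Topot against WT-Veh, 15 fell and 0 rose (17 and 0 with the block), with a median log2 fold change of −1.69. Genes of at least 1 CPM had a median of 0.03, and 4.74% of them were called (14.3% with the block). Vgf, a secreted neuropeptide precursor, fell by 2.93, Nr4a1, a nuclear receptor, fell by 3.37, and Fos, a subunit of AP-1, fell by 2.86. Bdnf, at −3.38, lay at the lower end of this list.

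In Top1 cKO-Topot most of these genes were above WT-Topot, as Bdnf was, and few were called where WT-Topot was not compared. In Top1 cKO-Veh against WT-Veh 0 were called by edgeR (3 lower and 1 higher at an unadjusted p under 0.05, 1 by DESeq2, 4 lower and 2 higher with the block). In Top1 cKO-Topot against Top1 cKO-Veh 0 were called by edgeR and by DESeq2, while 8 were higher at an unadjusted p under 0.05 and 8 with the block, with a median of 0.50. Top1 cKO-Topot against WT-Topot called 17 of 20 higher (19 with the block), with a median of 2.09. The interaction called 11 of 20 higher (17 with the block), with a median of 2.36. Top1 cKO-Topot against WT-Veh called 0 by edgeR (2 lower and 6 higher at an unadjusted p under 0.05, 1 by DESeq2, 1 lower and 6 higher with the block). WT-Topot against Top1 cKO-Veh called 14 lower (17 with the block). Of genes averaging 1 CPM or more, these comparisons called, in the same order, 0.299%, 0.0146%, 4.34%, 0.758%, 2.93% and 2.66%. With the block the shares were 9.67%, 4.51%, 15.1%, 6.9%, 12.8% and 13.4%.

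**Figure D5:**
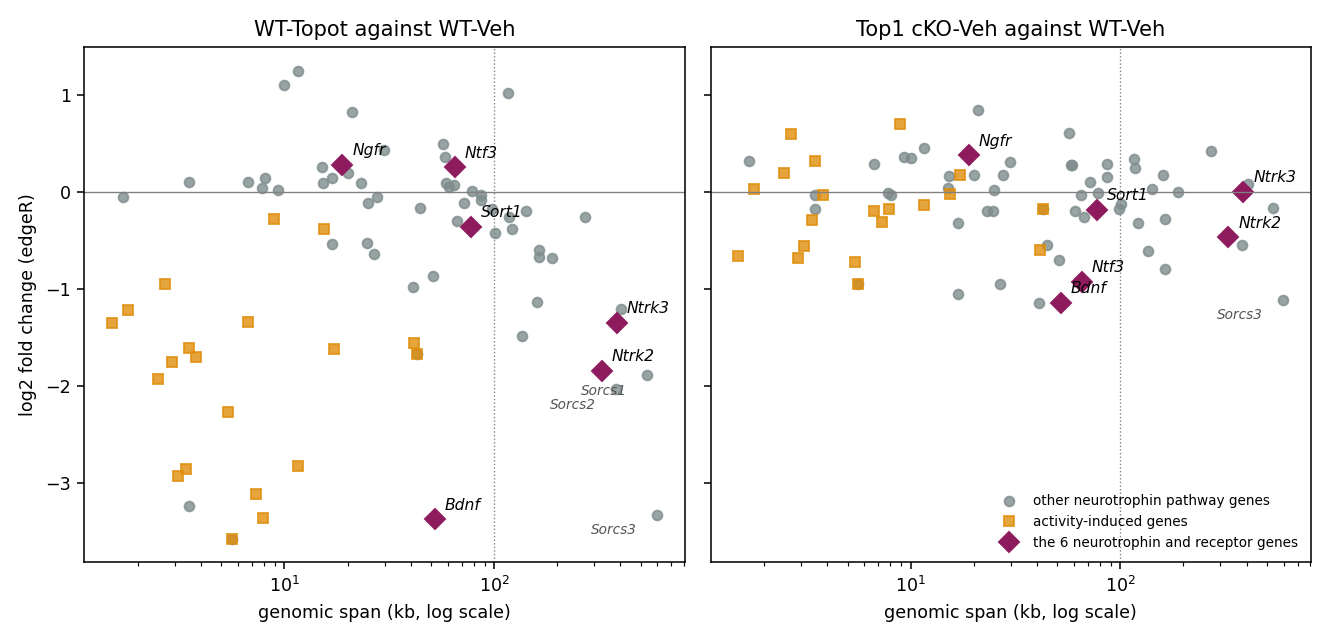
Log2 fold change (vertical axis) against genomic span (horizontal axis, kb, log scale, dotted line at 100 kb) for the members, the other pathway genes and the activity-induced genes, in WT-Topot against WT-Veh (left) and Top1 cKO-Veh against WT-Veh (right). On the left, Ntrk2, Ntrk3 and the Sorcs genes lie low at the long end while Bdnf and the activity-induced genes lie low at short spans. On the right no plotted gene passed the unblocked test.

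The genes whose levels were most like those of Bdnf over the 12 libraries were sought in the 11123 genes averaging 5 CPM or more, by Pearson r of log2(CPM + 1). They were Vgf (r = 0.981), R3hdm2 (0.976), Tyro3 (0.966), Slco3a1 (0.966) and Ppm1l (0.964). Their spans ran from 3.1 kb for Vgf to 279.4 kb for Slco3a1. For Ntrk2 they were Ergic1 (r = 0.944), Atrnl1 (0.941), Adm (0.937), Sox6 (0.935) and Sulf2 (0.935), with spans from 2.2 kb for Adm to 567.4 kb for Sox6. The libraries share groups, replicate numbers and scaling, so these r values are descriptions only.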

How the data were processed

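The authors sequenced polyA RNA from the 12 cultures, aligned reads to mm9 with TopHat, removed ribosomal reads and deposited raw counts of reads over RefSeq exons by gene symbol. The counting program, its use of strand and the versions are not given in the sources used here. Deposited columns of the authors' own comparisons were not used.

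Counts were tested with edgeR 4.0.16 (quasi-likelihood, TMM, no gene filter, R 4.3.3), within the 6 libraries of each comparison and over 12 for the interaction, with Benjamini-Hochberg adjustment over 23893 genes and a threshold of 0.01. The SE is the log2 fold change over the square root of F. Alternatives were the replicate block, DESeq2 size factors, filterByExpr, DESeq2 1.42.0, a fit over 12 libraries and leaving out each library. The script was tested on simulated counts.

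The study's legends call the replicates cultures, and the labels do not say whether these came from separate animals, so p-values measure the spread between these samples, which may be partly technical. Counts of 2 libraries of a group differed by 6.05 to 10.1 times the sampling variance, so each library was counted once. Deviations from group means correlated at 0.261 to 0.485 between libraries of the same number (18 pairs, 13720 genes) and at −0.384 to −0.0494 otherwise (36 pairs). Deviations within a group cancel, so positive values for the same number bring negative values for the others. Libraries of the same number thus share a part of their deviations, and the numbers were treated as pairing the samples. Replicate 3 had the lowest total count in each group. Whether the shared part comes from culture, depth or preparation is not in the labels and was not tested. The unblocked fit was kept as the main one because the study's methods state no block, and it leaves this pairing out. A member called only with the block is therefore not shown to be unchanged by failing the unblocked test. Depth, from 1730164 counts upward, limits Ntf3 and Ngfr.

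Members and gene lists were chosen with earlier results of these data known. The text names the 6 members, up to 6 called genes of each list and comparison by lowest adjusted p, Top1, and the 5 genes most like Bdnf and Ntrk2. Cell type markers were named after their values were seen. Spans came from GENCODE vM1 by symbol (1176 of the 13720 genes had none). RefSeq windows of Ntrk3 and Sort1 were not used here.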

Additional observations from a re-analysis of the deposited data

Results flagged for a closer look

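By edgeR's interaction test, the effect of topotecan differed between Top1 cKO and WT cells for 1 of the 6 members, 3 of the 52 pathway genes and 11 of the 20 activity-induced genes, with Npas4 and Pcsk1 in both lists. The same test called 0.435% of all genes, and 0.758% of those averaging 1 CPM or more (6.9% with the block). The difference between the log2 effects was 3.72 for Bdnf (adjusted p = 1.33e-04), 4.11 for Npas4 (0.00292), 1.85 for Pcsk1 (0.00647) and 1.84 for Sorcs2 (0.00648). Of the other activity-induced genes, those with the lowest adjusted p were Nr4a1 with 4.17, Egr4 with 2.58, Vgf with 2.83, Dusp1 with 2.44 and Scg2 with 2.65. Bdnf kept its call in 16 of 16 alternatives and Npas4 in 15. Pcsk1 kept it in 8, with an adjusted p of up to 0.0196 without WT-Topot replicate 1, and Sorcs2 in 10, with up to 0.0192 without WT-Topot replicate 3.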

How the results depend on the processing

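Bdnf and Ntrk2 in WT-Topot against WT-Veh kept direction and call in 11 of 11 alternatives, with adjusted p up to 3.41e-04 and 0.00183 under filterByExpr. Bdnf did so too in Top1 cKO-Topot against WT-Topot (up to 3.15e-04), in WT-Topot against Top1 cKO-Veh (up to 0.00318) and for the interaction (16 of 16, up to 0.00224). The replicate block raised the members called to 2 in Top1 cKO-Veh against WT-Veh, 1 for topotecan in Top1 cKO cells, 2 in Top1 cKO-Topot against WT-Veh and 3 for the interaction, and changed no other count of members by over 1.5 times. With filterByExpr the members called were 1 in Top1 cKO-Topot against WT-Topot, 0 in Top1 cKO-Topot against WT-Veh (also 0 in the fit over all 12 libraries; edgeR, unadjusted p under 0.05 in 2 members, DESeq2 1) and 1 in WT-Topot against Top1 cKO-Veh, and 2 in place of 3 in WT-Topot against WT-Veh, where Ntrk3 was lost; the cause was not tested. filterByExpr dropped Ntf3 in every group comparison but WT-Topot against WT-Veh. Leaving out 1 library gave 0 to 1 members called in Top1 cKO-Topot against Top1 cKO-Veh, 1 to 3 in Top1 cKO-Topot against WT-Topot, 0 to 2 in Top1 cKO-Topot against WT-Veh, 1 to 3 in WT-Topot against Top1 cKO-Veh and 1 to 2 for the interaction. In WT-Topot against Top1 cKO-Veh only Bdnf was left without WT-Topot replicate 3 or Top1 cKO-Veh replicate 2. There Ntrk2 was also lost with filterByExpr (adjusted p = 0.0333) and in the fit over all 12 libraries (0.0109), and Ntrk3 with filterByExpr (0.0208) and without WT-Topot replicate 1 (0.0344). Npas4 in WT-Topot against WT-Veh ran from −4.40 (without WT-Topot replicate 3) to −2.97 (without WT-Veh replicate 2), called in 11 of 11; without WT-Topot replicate 3 it was 3.97 in Top1 cKO-Topot against WT-Topot and −3.42 in WT-Topot against Top1 cKO-Veh. Members that did not pass the test changed sign. Ntrk3 in Top1 cKO-Veh against WT-Veh was −0.0017 with the block and −0.010 with filterByExpr. When 1 library was left out, log2 fold changes of Ngfr ran from −0.44 to 1.47 in WT-Topot against WT-Veh, −0.38 to 1.57 in Top1 cKO-Veh against WT-Veh, −1.15 to 0.21 in Top1 cKO-Topot against Top1 cKO-Veh, −1.05 to 0.27 in Top1 cKO-Topot against WT-Topot, −0.77 to 1.04 in Top1 cKO-Topot against WT-Veh and −0.79 to 0.62 in WT-Topot against Top1 cKO-Veh. Those of Ntrk3 ran from −0.11 to 0.12 in Top1 cKO-Veh against WT-Veh, −0.18 to 0.073 in Top1 cKO-Topot against WT-Veh and −0.20 to 0.061 in Top1 cKO-Topot against Top1 cKO-Veh. For the topotecan effect in Top1 cKO cells, Ntf3 ran from −0.67 to 0.14 and Sort1 from −0.16 to 0.10. The counts of activity-induced genes called ranged from 11 to 17 lower in WT-Topot against WT-Veh and from 4 to 17 higher for the interaction, and those of pathway genes from 5 to 11 lower and from 0 to 8 higher; the alternatives for these lists were added after the data were seen. Depth limits Ntf3 and Ngfr.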
